A study of Homo sapiens with 16 samples.

Results

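Small nucleolar RNAs (snoRNAs) and small Cajal body RNAs (scaRNAs) were followed in polyadenylated RNA of a gut-liver chip. The members were the genes whose symbol begins with SNORA, SNORD or SCARNA, plus AL138963.2, that had a mean of at least 1 CPM (counts per 1000000 reads of the library) over the 16 libraries. By this rule 26 genes were members, out of 550 genes of these families and 60623 genes listed in all. The members were thus chosen by their mean level over all libraries, and AL138963.2 (SNORA31B in GENCODE release 44) and SNORA12 had already been noticed for their level in co-cultured Caco-2 cells. The members were 13 H/ACA RNAs (SNORA and AL138963.2), 4 C/D RNAs (SNORD) and 9 Cajal body RNAs (SCARNA).

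The cells were Caco-2, a line from a colon tumour, and HepG2, a line from a liver tumour. Each line was cultured on a microfluidic device alone (mono-culture) or connected by flow to the other line (co-culture), without free fatty acids (control) or with 1 mM FFA (palmitic and oleic acid, 1 to 2). The 8 groups of line, culture and treatment held 2 replicates each. RNA was harvested line by line, copied into cDNA, amplified by PCR and read on an Oxford Nanopore device. The labels give 1 day before sample preparation, and the study describes treatment for 1 day and for a longer period. Each line is a single tumour line that stands in for its organ, and the study asked how the organs act on each other in fatty liver disease.

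snoRNAs guide chemical changes of ribosomal RNA in the nucleolus. H/ACA RNAs fold into a pair of hairpins, followed by the H box and the ACA box in turn, and guide the conversion of uridine to pseudouridine, together with dyskerin (DKC1), NHP2, NOP10 and GAR1. C/D RNAs carry a C box and a D box and guide ribose methylation, together with fibrillarin (FBL), NOP56, NOP58 and SNU13. scaRNAs do the same work on spliceosomal RNAs in Cajal bodies. Most human snoRNAs are cut from introns of host genes, and the mature RNA has no poly(A) tail. The values below describe the molecules that entered poly(A) libraries, and whether these were mature, tailed or precursor forms was not measured.

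Members named below for their change or their level are shown here as examples, with their position on GRCh38. The sequences are genomic sequence of the annotated gene, 5′ to 3′ on its own strand, and those of the other members are not printed. SNORA12 lies at chr10:100237156-100237302 (minus strand), SNORA11F at chr10:73126080-73126207 (minus), SNORA51 at chr20:2655067-2655198 (plus), SNORA50C at chr17:64146339-64146471 (plus), SCARNA21 at chr17:7906122-7906260 (plus) and SCARNA12 at chr12:6967337-6967606 (minus). Capitals mark the ACA letters near the 3′ end and the match to the H box pattern ANANNA nearest to the middle. In SCARNA12, which joins a C/D and an H/ACA part, they mark the C box TGATGA, the H box match and the D box CTGA.
SNORA12: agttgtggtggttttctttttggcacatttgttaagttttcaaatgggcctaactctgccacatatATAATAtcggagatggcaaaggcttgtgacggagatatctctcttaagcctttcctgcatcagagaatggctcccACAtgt
SNORA11F: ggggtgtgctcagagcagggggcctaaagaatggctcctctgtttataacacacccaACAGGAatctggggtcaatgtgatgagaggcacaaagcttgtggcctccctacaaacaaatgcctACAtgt
SNORA51: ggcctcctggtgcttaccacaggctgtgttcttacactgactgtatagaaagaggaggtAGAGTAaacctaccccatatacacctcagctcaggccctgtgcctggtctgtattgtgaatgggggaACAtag
SNORA50C: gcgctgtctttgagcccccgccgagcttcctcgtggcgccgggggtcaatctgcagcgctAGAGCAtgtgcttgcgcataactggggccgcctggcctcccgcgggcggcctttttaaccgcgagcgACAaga
SCARNA21: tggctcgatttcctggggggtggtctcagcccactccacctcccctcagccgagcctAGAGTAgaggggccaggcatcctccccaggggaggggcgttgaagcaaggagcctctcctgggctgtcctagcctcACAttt
SCARNA12: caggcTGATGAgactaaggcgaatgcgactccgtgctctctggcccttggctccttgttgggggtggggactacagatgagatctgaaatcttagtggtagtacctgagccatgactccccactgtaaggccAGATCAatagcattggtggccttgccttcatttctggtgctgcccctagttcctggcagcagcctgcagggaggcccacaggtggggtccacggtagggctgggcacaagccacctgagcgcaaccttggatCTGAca

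The families were unevenly represented in the libraries. Of 213 H/ACA genes, 13 were members, 38 had reads but a mean below 1 CPM and 162 had no read in any library. Of 312 C/D genes, 4 were members, 26 were below 1 CPM and 282 had no read. Of 25 Cajal body genes, 9 were members, 7 were below 1 CPM and 9 had no read. The 26 members held 3081 of the 3289 family reads.

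The ACA letters stood at the place of the box in 11 of the 13 H/ACA members (84.6%) and in 63.0% of the H/ACA genes without a read. The C box TGATGA was found within the first 25 bases in none of the 4 C/D members and in 66.3% of all C/D genes, and the D box CTGA within the last 25 bases in 3 of the 4 members and in 90.1% of all C/D genes. No match says only that these letters are not in that window. H/ACA members had a median length of 133 bases, the same as H/ACA genes without a read, while C/D members had a median of 119 bases against 79 in C/D genes without a read. In the 20 bases after the gene's end, the median number of A was 7 for the members and 5 for family genes without a read.

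Depth limited what could be seen. Caco-2 libraries held between 353871 and 974654 reads and HepG2 libraries between 49634 and 1657430, so that 1 read stood for 0.603 to 20.1 CPM, and a floor of 3 reads for 1.81 to 60.4 CPM. The shallowest were the HepG2 co-culture FFA libraries, with 147096 and 49634 reads. Intervals and floors account for counting error alone, because PCR copies are not independent molecules. Of 12 HepG2 markers, 9 were higher in every HepG2 library than in every Caco-2 library (not APOA1, TTR and VTN), as were 4 of 12 Caco-2 markers in the other direction. The Caco-2 markers that were not were VIL1, CDX1, CDX2, LGALS4, KRT20, GPA33, TFF3 and SI. A library held 21 to 706 reads of members and showed 9 to 22 of the 26. In such bulk RNA, fewer expressing cells and less RNA per cell cannot be told apart. Sequencing runs and dates are not in the labels.

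Few members carried most of the signal. SNORD13, a C/D RNA needed for acetylation of the RNA of the small ribosomal subunit, had the highest mean at 125.7 CPM, followed by the Cajal body RNA SCARNA22 at 52.3 CPM. Together they held 62.9% of the member reads, and they were the 2 members with a read in every library. SCARNA9, which guides methylation of the spliceosomal RNA U2, followed with 21.0 CPM, then SNORA12 with 14.3, AL138963.2 with 12.4, SNORA11F with 9.28, SNORA59B with 7.75, SCARNA21 with 7.72, SNORA67 with 7.0 and SNORD13P3 with 4.26 CPM. Per kilobase of gene SNORD13 (1209 CPM per kb) and SCARNA22 (419) stayed in front, followed by SNORA12 (97.1), AL138963.2 (92.5) and SNORA11F (72.5). The longer SCARNA9 came after these with 59.6 CPM per kb, and SNORA59B, 701 bases long, dropped to 11.1.

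The other members were sparse. Each of 16 members had 30 reads or fewer over all libraries, and 4 never reached 3 reads in any library (SNORA18, SNORA48 and SNORA17B under its 2 identifiers). Both SNORA17B entries (ENSG00000276161 and ENSG00000280496) rested on 1 read each, in the shallowest library, where a read is worth 20.1 CPM. The entries overlap over 130 bases and had equal reads in 16 of 16 libraries, so a single read appears to have been counted for both. Just inside the limit of a mean of 1 CPM were SNORA17B (1.26), SCARNA7 (1.23) and SNORA48 (1.06). Just outside were SNORA11D (0.979), SNORA11B (0.968) and SNORD15B (0.826).

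**Figure D1:**
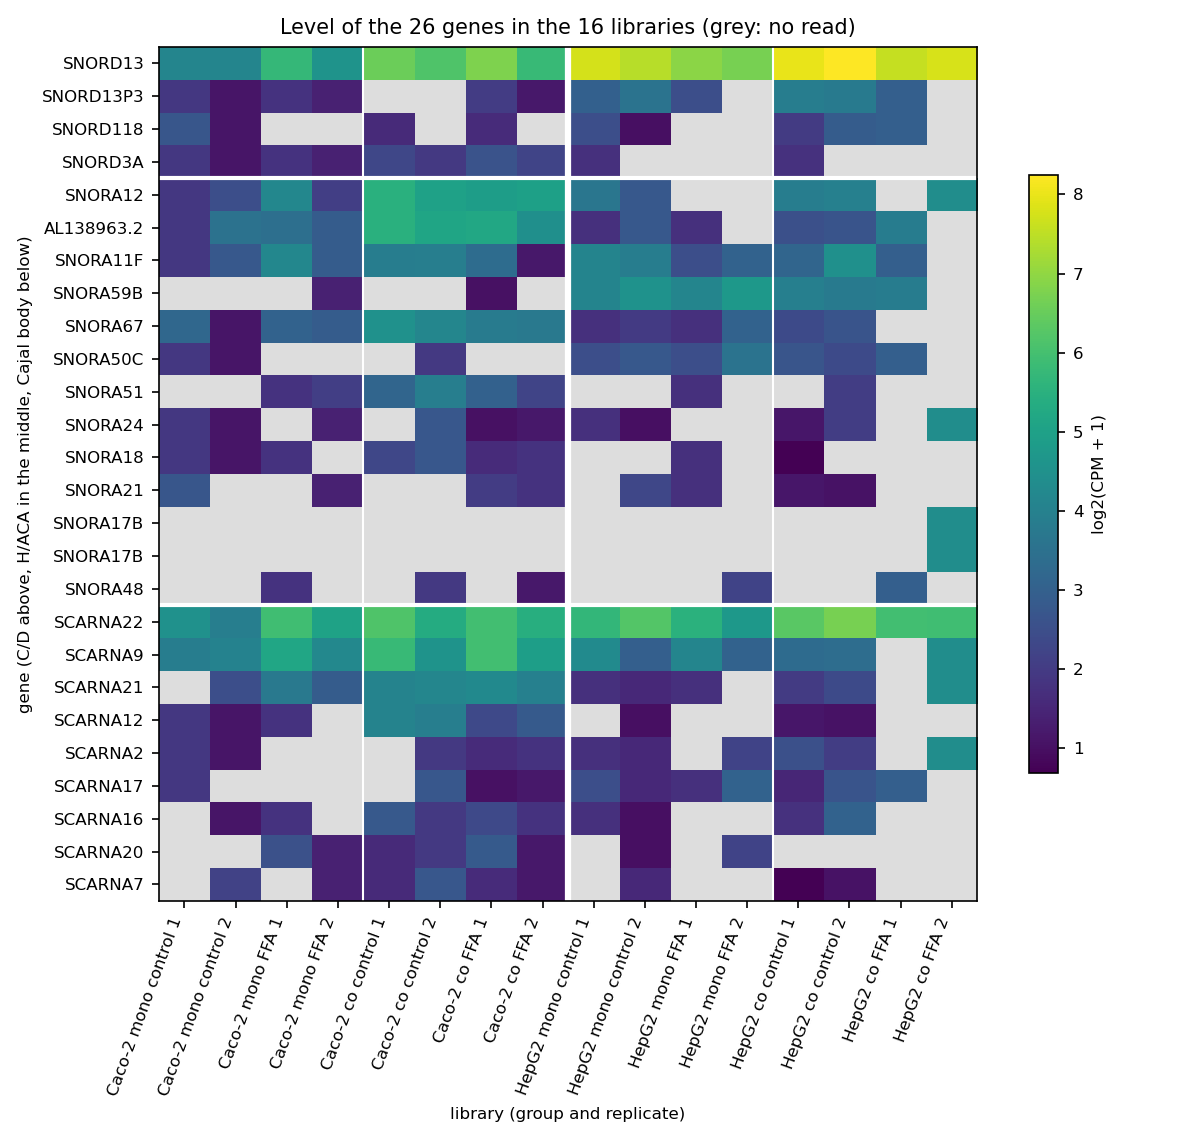
Level of each of the 26 genes (rows, grouped into C/D, H/ACA and Cajal body RNAs and ordered by mean) in the 16 libraries (columns, by line, culture, treatment and replicate), as log2(CPM + 1), with grey for no read. SNORD13 and SCARNA22 have a read in all 16 libraries, and many of the other cells are grey.

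The C/D members are unusual in kind. SNORD3A and SNORD118 act in cleavage of the ribosomal precursor and SNORD13 in its acetylation, so none of these is a guide for ribose methylation. SNORD13P3, named as a pseudogene of SNORD13, is 95.2% identical to it, and reads could have been split between the pair, so its level is uncertain. SNORD13 held 93.1% of the C/D member reads, and what the C/D class shows is therefore mostly what SNORD13 shows.

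SNORD13 (ENSG00000239039) showed the clearest pattern across groups. In Caco-2 its level was 16.4 and 16.5 CPM in mono-culture control, 51.9 and 22.5 in mono-culture FFA, 93.1 and 70.6 in co-culture control, and 109.8 and 54.2 in co-culture FFA. In HepG2 it was 215.9 and 172.0 CPM in mono-culture control, 120.1 and 101.9 in mono-culture FFA, 252.2 and 302.3 in co-culture control, and 190.4 and 221.6 in co-culture FFA. Every co-cultured Caco-2 library lay above every mono-cultured one, and the lines overlapped only where Caco-2 co-culture FFA replicate 1 exceeded HepG2 mono-culture FFA replicate 2.

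Co-culture against mono-culture asked whether contact with the other organ's medium changed these RNAs. In Caco-2, averaged over treatment, SNORD13 rose in limma's test over 15454 genes, with a log2(CPM + 1) difference of 1.69 (SE 0.28, 95% interval 1.08 to 2.30, adjusted p = 0.0176, n = 4 libraries a side). The level went from 26.8 ± 17.0 to 81.9 ± 24.5 CPM (SD, n = 4). Leaving out any single Caco-2 library kept the direction, with differences of 1.40 to 1.99, but took the adjusted p to between 0.0616 and 0.217. With a pseudocount of 0.1 it was 0.130. Without FFA the difference was 2.24 with an adjusted p of 0.0533 in limma's test.

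SNORA12 (ENSG00000212464) and AL138963.2 (ENSG00000253051), which had been noticed for this contrast, are given as a description. SNORA12 was 2.74 and 4.70 CPM in Caco-2 mono-culture control, 17.3 and 3.22 in mono-culture FFA, 43.6 and 31.1 in co-culture control, and 28.7 and 30.8 in co-culture FFA. AL138963.2 was 2.74 and 10.6, 9.90 and 6.43, 43.6 and 33.9, and 35.9 and 20.9 CPM in the same groups. Neither overlapped between co-cultured and mono-cultured Caco-2 libraries. In HepG2 SNORA12 ranged from 0 to 20.2 CPM and AL138963.2 from 0 to 13.6 CPM, and co-culture overlapped mono-culture for both. In limma's test over all genes the Caco-2 differences were 2.42 for SNORA12 (SE 0.44, adjusted p = 0.0262) and 2.12 for AL138963.2 (SE 0.40, adjusted p = 0.0319). Leaving out single Caco-2 libraries gave 1.89 to 2.95 for SNORA12, with the adjusted p under 0.05 only without mono-culture FFA replicate 1, and 1.71 to 2.53 for AL138963.2, with none under 0.05.

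**Figure D2:**
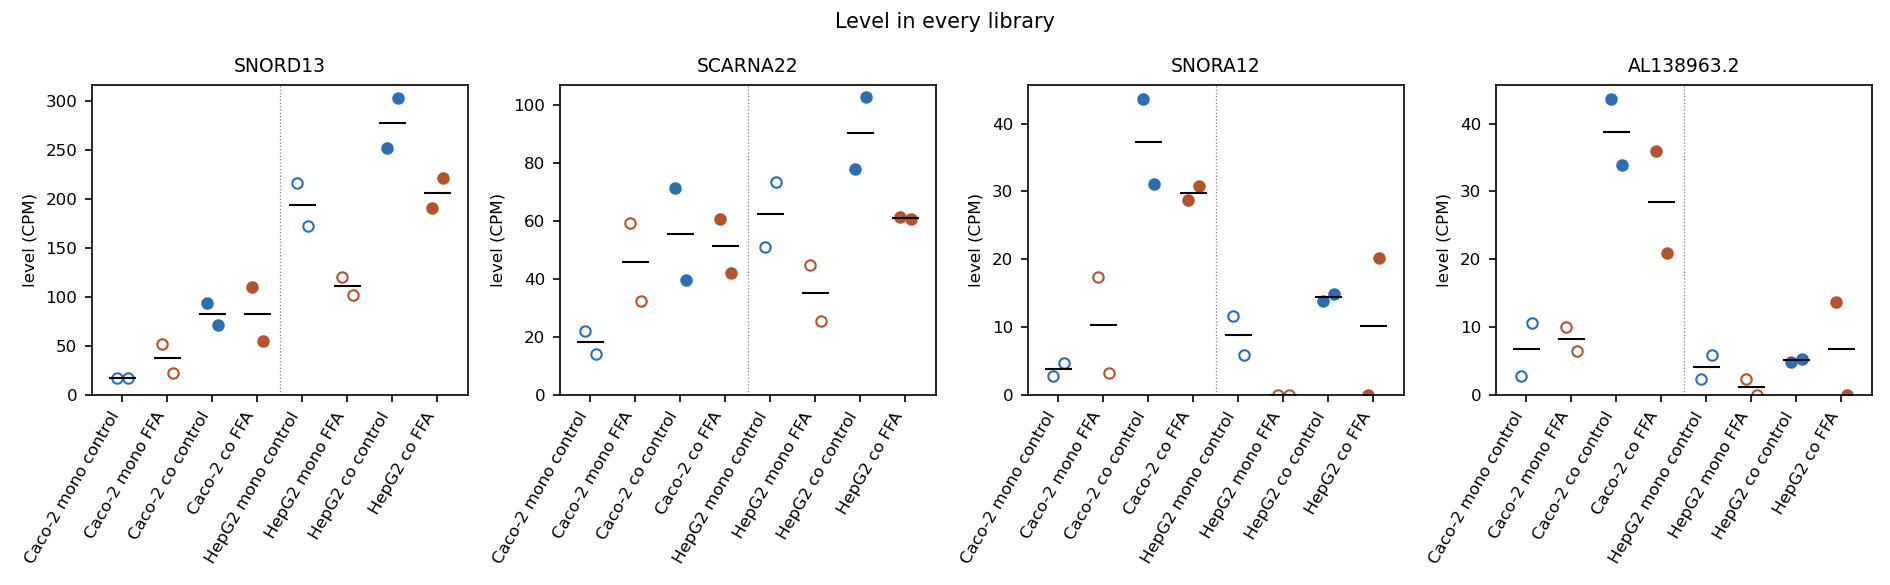
Level in CPM (y axis, from 0) of SNORD13, SCARNA22, SNORA12 and AL138963.2 in each of the 8 groups (x axis), 1 point a library, open for mono-culture and filled for co-culture, blue for control and brown for FFA, with the mean of 2 as a line. In Caco-2 the co-culture points of SNORD13, SNORA12 and AL138963.2 lie above all mono-culture points.

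With SNORD13, SNORA12 and AL138963.2, 3 of the 23 members tested in Caco-2 passed as higher and 0 as lower, where 0.317% and 0.136% of all genes did. At an unadjusted p under 0.05, 10 were higher and 0 lower, against 8.41% and 3.37% of genes. The groups did not overlap, with co-culture higher, for 8 of the 23, against 4.25% of all genes, and for 0 with co-culture lower, against 1.68%. The difference was positive for 19 of the 23 with a median of 0.88, beside 59.6% of all genes and a median of 0.14. SNORA12 and AL138963.2, noticed for this contrast, are among these counts. Without them, of 21 members 1 passed, 8 were higher at an unadjusted p under 0.05, 6 did not overlap and 17 were positive, with a median of 0.87. The 3 members that were not tested (SNORA59B and both SNORA17B entries) were below 1 CPM in every Caco-2 group.

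Of the H/ACA RNAs, SNORA67 was at 1.17 to 8.22 CPM in mono-cultured and 12.3 to 21.8 in co-cultured Caco-2 cells (difference 1.49, SE 0.48, adjusted p = 0.232). SNORA51 was at 0 to 3.22 and 3.70 to 14.1 CPM (2.12, SE 0.61, adjusted p = 0.171). These ranges did not overlap, yet neither passed in limma's test. SNORA11F, among the most abundant H/ACA members, differed by 0.14 with a 95% interval of −1.08 to 1.36, which leaves room for a change either way.

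Of the Cajal body RNAs, SCARNA21 was at 0 to 12.4 CPM in mono-cultured and 14.8 to 18.5 in co-cultured Caco-2 cells (1.84, SE 0.54, adjusted p = 0.181). SCARNA12 was at 0 to 2.74 and 4.10 to 15.9 CPM (2.09, SE 0.63, adjusted p = 0.188). SCARNA22 was at 14.1 to 59.4 and 39.6 to 71.3 CPM, with overlap (0.87, SE 0.28, adjusted p = 0.220). SCARNA9 likewise overlapped, at 13.7 to 34.6 and 22.6 to 61.6 CPM (0.99, SE 0.34, adjusted p = 0.273). None of these passed in limma's test. Counted as whole reads in edgeR's quasi-likelihood test, 7 of 15 members with enough reads passed, against 3.93% of all genes in either direction. These were the 3 above, SCARNA22, SCARNA9, SNORA51 and SNORA67.

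Some HepG2 markers were higher in the same contrast. The summed level of all 12 in Caco-2 was 9940 to 11524 CPM in mono-culture and 12796 to 13457 CPM in co-culture, beside 49941 to 83490 CPM in HepG2. That of the 9 that were higher in every HepG2 library was 5382 to 6292 CPM and 6327 to 6714 CPM in Caco-2, again without overlap. In every co-cultured Caco-2 library 6 of the 12 were higher than in any mono-cultured one and 0 lower, against 4.25% and 1.68% of all genes. They were AFP (194 to 293 and 406 to 489 CPM), FGG (43.5 to 76.7 and 80.1 to 104.6 CPM), APOH (201 to 319 and 356 to 412 CPM), APOA1, TTR and VTN. APOA1, TTR and VTN are the markers that were not higher in every HepG2 library. The other markers, ALB, APOA2, AHSG, FGA, FGB and SERPINA1, overlapped between the Caco-2 cultures. APOA1 was at 2817 to 3403 and 3740 to 4404 CPM, TTR at 752 to 913 and 1068 to 1457, and VTN at 927 to 1204 and 1255 to 1441. In co-cultured HepG2 cells APOA1 was at 6560 to 9408, TTR at 775 to 1047 and VTN at 355 to 685 CPM. FGA, a fibrinogen chain made by hepatocytes, was at 0 to 4.94 CPM in mono-cultured and 0 to 6.16 CPM in co-cultured Caco-2 cells and at 672 CPM or more in HepG2. Of the 3 members that passed, SNORD13 was higher in every HepG2 group mean than in co-cultured Caco-2 cells, and SNORA12 and AL138963.2 were lower. The part of this signal in the co-culture differences was not tested.

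**Figure D3:**
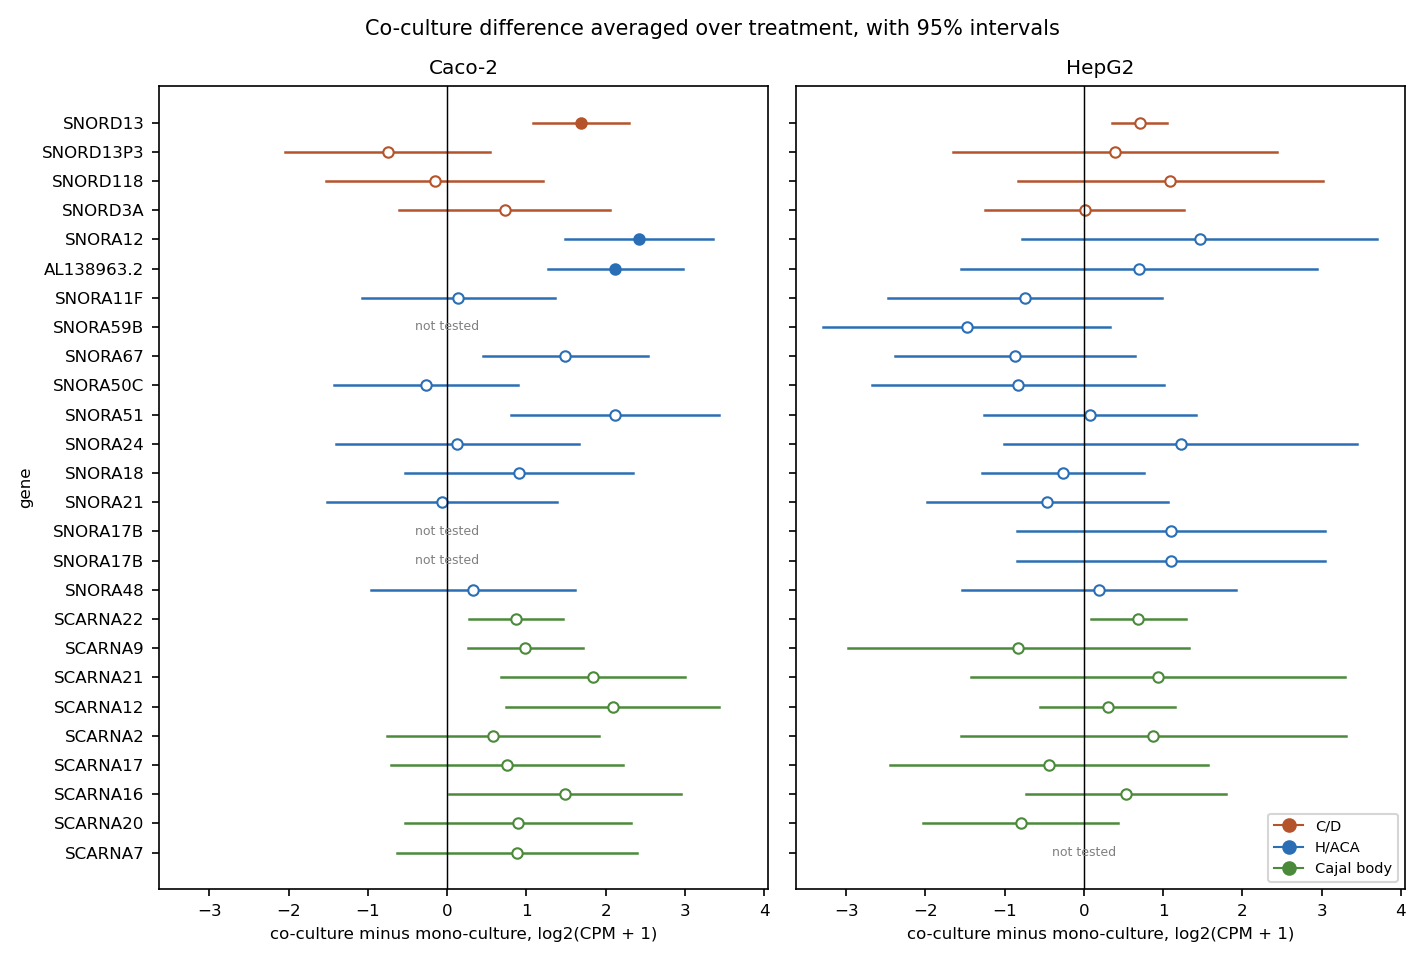
Difference between co-culture and mono-culture, averaged over treatment, on the log2(CPM + 1) scale (x axis) for each gene (y axis) in Caco-2 (left) and HepG2 (right), with 95% intervals and filled points for an adjusted p under 0.05. In Caco-2 the 3 filled points are SNORD13, SNORA12 and AL138963.2, and in HepG2 no point is filled.

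In HepG2, 0 of the 25 members tested passed for co-culture, as did 0% of all 14430 genes in limma's test, and 2 members were higher and 0 lower at an unadjusted p under 0.05, against 3.87% and 3.85% of genes. These were SNORD13 (difference 0.70, SE 0.15, adjusted p = 0.489) and SCARNA22 (0.68, SE 0.26, adjusted p = 0.631). edgeR also called 0 members. The groups did not overlap for 0 members with co-culture higher and for 1 with co-culture lower (SNORA59B), against 1.12% and 1.19% of genes. SNORD13 was at 101.9 to 215.9 CPM in mono-culture and 190.4 to 302.3 CPM in co-culture, so that the ranges overlapped. Without HepG2 co-culture FFA replicate 1, which leaves the library of 49634 reads alone in its group, 5 members passed, beside 8.84% of all genes. These were SNORD13 (adjusted p = 0.0288 in limma's test), SNORA12, SNORA59B and both SNORA17B entries, and SNORA12 and SNORA17B rest on 1 read each in that library. SCARNA7 was not tested in HepG2.

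Whether co-culture acted differently on the lines was tested in a fit to all 16 libraries. The fit took them as independent, and a pairing of co-cultured lines that shared medium was not tested. No member passed for this difference, where 0.0228% of all genes passed as higher and 0.0741% as lower, and 0 members were higher and 4 lower at an unadjusted p under 0.05, against 3.23% and 6.49%. The smallest p belonged to SNORA67 (HepG2 minus Caco-2 effect −2.36, SE 0.76, adjusted p = 0.318 in limma's test), and for SNORD13 the difference was −0.99 (SE 0.38, adjusted p = 0.405). The larger change of SNORD13 in Caco-2 was therefore not shown to differ from that in HepG2.

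As summed classes, the members were at 36.5 ± 15.4 CPM of H/ACA RNA in mono-cultured and 110 ± 26.5 CPM in co-cultured Caco-2 cells (SD, n = 4), a log2 ratio of 1.59. Without SNORA12 and AL138963.2 the H/ACA sums were 22.1 ± 9.0 and 42.8 ± 15.9 CPM, a log2 ratio of 0.96, and overlapped. C/D RNA was at 32.5 ± 16.6 and 87.9 ± 27.0 CPM, a log2 ratio of 1.44 that came to 0.082 without SNORD13. Of the remaining C/D members, SNORD3A did not overlap, at 1.17 to 2.74 CPM in mono-culture and 2.82 to 5.13 CPM in co-culture. It had 1 to 5 reads a library. SNORD13P3 and SNORD118 overlapped. Cajal body RNA was at 65.1 ± 35.0 and 135 ± 32.9 CPM. The sums of all H/ACA and of all C/D members did not overlap between cultures in Caco-2, and those of Cajal body RNA did.

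In HepG2, H/ACA RNA was at 52.4 ± 10.3 CPM in mono-culture and 63.2 ± 15.2 CPM in co-culture (log2 ratio 0.27), C/D RNA at 160 ± 57.9 and 255 ± 52.9 CPM (0.67) and Cajal body RNA at 71.4 ± 19.0 and 106 ± 28.8 CPM. All of these ranges overlapped. Without the members that overlap an exon of another gene on the same strand, the H/ACA ratio in HepG2 was −0.16.

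**Figure D4:**
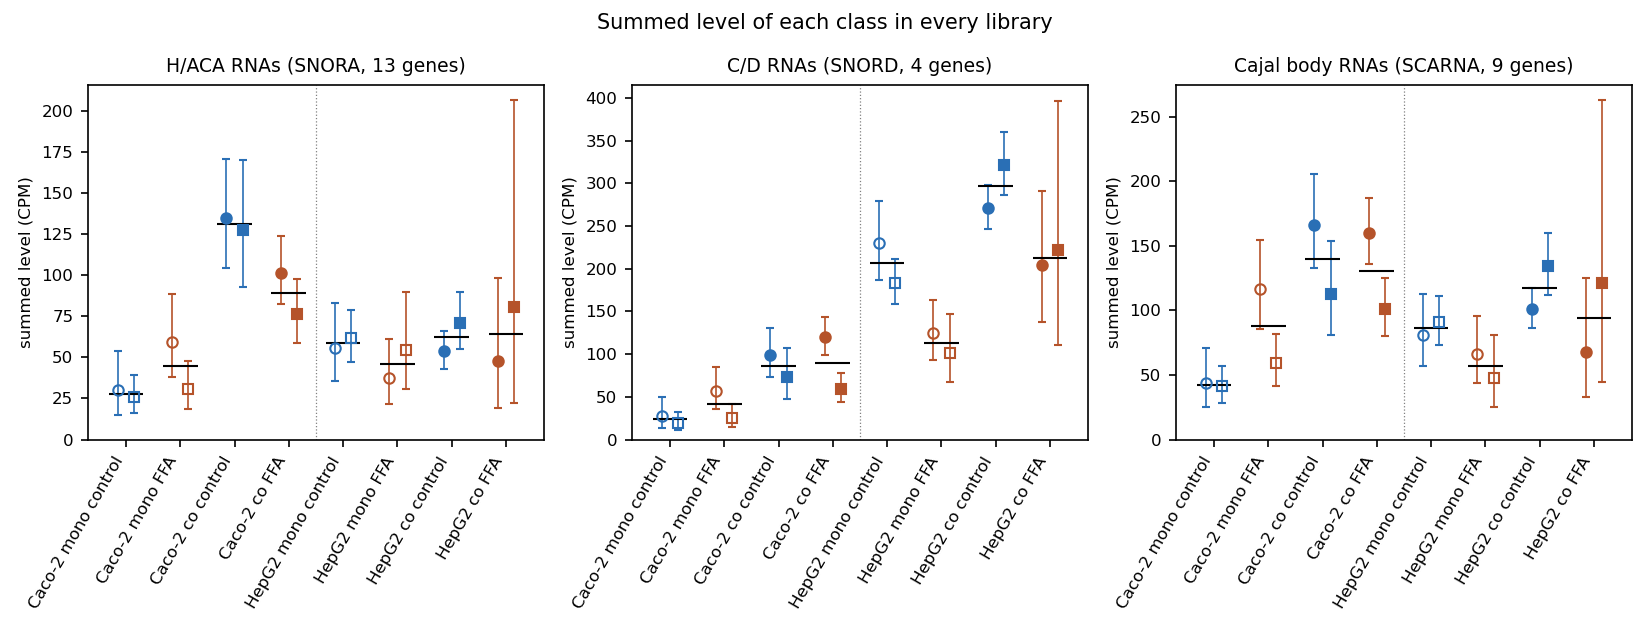
Summed level in CPM (y axis, from 0) of the 13 H/ACA, 4 C/D and 9 Cajal body members in every library of the 8 groups (x axis), circles for replicate 1 and squares for replicate 2, open for mono-culture and filled for co-culture, blue for control and brown for FFA. Bars are exact binomial 95% intervals of the reads and cover counting error only, lines are means of 2, and the widest intervals belong to HepG2 co-culture FFA.

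Over treatment, the H/ACA sum in Caco-2 was 79.5 ± 59.5 CPM in control and 67.0 ± 29.8 CPM with FFA, and the C/D sum 55.0 ± 37.7 and 65.4 ± 39.5 CPM (SD, n = 4). In HepG2 the H/ACA sum was 60.4 ± 7.67 and 55.1 ± 18.3 CPM, and the C/D sum 252 ± 58.7 and 163 ± 58.6 CPM. All of these ranges overlapped.

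FFA against control asked whether the fatty acid load changed these RNAs. In Caco-2, 0 of 23 members passed averaged over culture, and 0% of all genes did in limma's test. SNORA50C (difference −1.24, SE 0.54) and SCARNA22 (0.59, SE 0.28) had the smallest p, both with an adjusted p of 0.829. They were the 1 member lower and the 1 higher at an unadjusted p under 0.05, against 1.73% and 3.12% of genes, and no member's groups were separate (1.15% and 0.744% of genes). In mono-culture alone 0 members passed, beside 0.00647% of genes as higher, and 4 were higher and 0 lower at an unadjusted p under 0.05, against 3.73% and 2.06%. SCARNA22 was at 21.9 and 14.1 CPM in mono-culture control and 59.4 and 32.1 CPM in mono-culture FFA (difference 1.27, SE 0.39, adjusted p = 0.837), and SCARNA21 differed by 2.06 (SE 0.77, adjusted p = 0.837).

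In HepG2, 0 of 25 members passed for FFA averaged over culture, where 0.0554% of genes passed as higher and 0.0208% as lower. The difference was negative for 20 of the 25 members and positive for 5, where 47.2% of all genes were positive. The median was −0.61 beside −0.07 over all genes. At an unadjusted p under 0.05, 6 members were lower and 0 higher, against 7.06% and 6.76% of genes. Every HepG2 FFA library (49634 to 424538 reads) was shallower than every HepG2 control library (430815 to 1657430 reads). The part of depth in these differences was not tested. The groups did not overlap for 3 members with FFA lower and 0 with FFA higher, against 3.36% and 4.16%. SNORD13 differed by −0.61 (SE 0.15, adjusted p = 0.187 in limma's test) and SCARNA16, which guides pseudouridylation of a spliceosomal RNA, by −1.89 (SE 0.55, adjusted p = 0.214). SCARNA16 was at 0.98 to 7.40 CPM in the 4 control libraries and had no read in the 4 FFA libraries, whose floor of 3 reads lies far above that in the shallowest. edgeR called 3 members (SNORD13, SCARNA22 and SNORA12), against 6.45% of all genes. SCARNA16 passed without co-culture control replicate 1 (adjusted p = 0.0158 in limma's test), beside 7.77% of genes. Without co-culture FFA replicate 1, the library of 49634 reads stood alone in its group. The members called then were SNORA11F, SNORD13P3, SNORA59B and both SNORA17B entries. The SNORA17B entries are members only through 1 read in that library, which appears to be counted for both, so their call restates that read.

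In HepG2 mono-culture the FFA libraries of SNORD13 lay below the controls (difference −0.80, SE 0.21, adjusted p = 0.712). SNORA12 was at 11.6 and 5.86 CPM in control and had no read in either FFA library (−3.22, SE 1.38, adjusted p = 0.796 in limma's test). The groups did not overlap, with FFA lower, for 8 of 25 members, against 12.3% of all genes, and for 0 with FFA higher, against 20.2%. In limma's test 0 members passed, as did 0% of genes, and 2 were lower and 0 higher at an unadjusted p under 0.05, against 3.22% and 3.04%. edgeR called SNORD13, where 0.512% of genes were called. Here too the FFA libraries (424538 and 274857 reads) were shallower than the controls (430815 and 1023032 reads).

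The interaction of FFA and culture passed for 0 members in either line, as it did for 0% of genes in limma's test. In Caco-2, 3 members were lower and 0 higher at an unadjusted p under 0.05, against 2.92% and 2.1% of genes, led by SNORA11F (−2.85, SE 1.14) and SCARNA22 (−1.34, SE 0.55), with an adjusted p of 0.820 for each. In HepG2, 1 was lower and 0 higher, against 4.78% and 2.16%, and this was SNORA67 (−3.06, SE 1.32, adjusted p = 0.702), followed by SNORA51 (−1.90, SE 1.17, adjusted p = 0.721). edgeR called 0 members for either interaction.

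Co-culture without FFA, with 2 libraries a group, was likewise called for 0 members in limma's test. In Caco-2 this count depended on the filter, with 3 members called without a filter and 5 among genes at a mean of at least 10 CPM, where 0.229% and 1.43% of genes were called. With the filter used here, 0.0841% of genes passed as higher and 0.0129% as lower, and at an unadjusted p under 0.05 there were 9 members higher and 0 lower, against 7.23% and 3.09%. The groups did not overlap for 14 of 23 members with co-culture higher and for 1 with co-culture lower, against 22% and 9.6% of genes. edgeR called 4 members (SNORD13, SCARNA22, SNORA12 and AL138963.2), against 0.904% of genes. SNORA12 and AL138963.2, noticed for co-cultured Caco-2 cells, are among these counts and among the calls under both other filters. Without them, of 21 members 7 were higher at an unadjusted p under 0.05. The groups of 12 did not overlap with co-culture higher, and of 1 with co-culture lower. In HepG2, 0% of genes passed, and 1 member was higher and 0 lower at an unadjusted p under 0.05, against 1.82% and 0.797%. The groups did not overlap for 9 of 25 members with co-culture higher and for 1 with co-culture lower, against 20.5% and 12.4% of genes, and edgeR called 0 members. The smallest p in Caco-2 were those of SNORD13 and SNORA12 (3.03, SE 0.62, adjusted p = 0.110), and in HepG2 those of SNORD13 (0.52, SE 0.21) and SCARNA22 (0.54, SE 0.37), each with an adjusted p of 1.

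Averaged over culture and treatment, some members differed between the lines. Of the 26 members, 4 were higher and 8 lower in HepG2 than in Caco-2, where 12.5% and 17.9% of 17544 genes passed in these directions. The 8 include SNORA12 and AL138963.2, noticed for their level in co-cultured Caco-2 cells, whose libraries enter this average. Without them, of 24 members 4 were higher and 6 lower. SNORD13 was higher by 2.07 (SE 0.19, adjusted p = 1.29e-06 in limma's test), with a median of 53.1 CPM in Caco-2 (16.4 to 109.8) and 203 CPM in HepG2 (101.9 to 302.3). SNORA59B was higher by 3.34 (SE 0.52, adjusted p = 0.000219), with 2 reads in all Caco-2 libraries and 82 in HepG2. SNORA50C (1.81, SE 0.49, adjusted p = 0.0119) and SCARNA22 (0.60, SE 0.21, adjusted p = 0.0486) were also higher.

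The members that were lower in HepG2 were 5 H/ACA RNAs, 1 C/D RNA and 2 Cajal body RNAs. AL138963.2 was lower by a log2 difference of −2.09, SCARNA12 by −1.85, SNORA67 by −1.62, SCARNA9 by −1.62, SNORA51 by −1.55, SNORA12 by −1.54, SNORD3A by −1.47 and SNORA18 by −1.35, with adjusted p of 0.00196 to 0.0457 in limma's test. Taking the mono-culture libraries alone left 3 members called, all higher in HepG2 (SNORD13, SNORA59B and SNORA50C), with differences of −0.96 for SCARNA12, −0.45 for SNORA67 and −1.38 for AL138963.2. Left out 1 at a time, the 16 libraries left 9 of the 12 calls in place. The calls of SCARNA9 and SNORA12 held in 3 of the 16 fits and that of SCARNA22 in 4, with an adjusted p of up to 0.125, 0.145 and 0.119. No member's HepG2 and Caco-2 ranges were separate, where those of 4.30% of genes were with HepG2 higher and 5.97% with HepG2 lower.

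The balance between the classes did not overlap between the lines. Of the H/ACA and C/D member reads combined, H/ACA RNAs held between 45.8% and 63.4% in the 8 Caco-2 libraries and between 16.5% and 34.9% in the 8 HepG2 libraries. The highest HepG2 share, in mono-culture FFA replicate 2, had an exact binomial 95% interval of 21.0% to 50.9%, and the lowest Caco-2 share, in co-culture FFA replicate 1, one of 39.1% to 52.7%. Since most C/D reads belong to SNORD13, the share follows that gene. The mitochondrial share of reads moved with the lines too (2.73% to 3.97% for Caco-2, 6.29% to 10.6% for HepG2), and its part in the difference was not tested.

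Reads of the members were set beside those of their host genes. By GENCODE, 23 of the 26 members lie within a gene on the same strand, and SNORD13, SNORA11F and SNORD3A do not. SCARNA22 had 568 reads and its host NSD2, a histone methyltransferase, 27, with fewer reads than SCARNA22 in 16 of 16 libraries. SNORA12 had 149 reads and its host CWF19L1 49, fewer in 10 libraries, and SCARNA9 had 211 and its host CEP295 162, also fewer in 10. For these members the small RNA was counted more often than the gene around it.

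The reverse held for members in abundant hosts. TPT1, a translationally controlled gene around AL138963.2, had a mean of 8224 CPM, RPL23, the ribosomal protein gene around SNORA21, 5966 CPM, SNHG8 around SNORA24 518 CPM, EIF4A1 around SNORA67 and SNORA48 393 CPM, and NOP56 around SNORA51 378 CPM. Of the 26 members, 15 lie wholly inside an annotated exon of another gene on the same strand and 2 in part, so reads of an unspliced or alternatively spliced host can count for them. SCARNA2 had the same number of reads as AL356488.2, which contains it, in 16 of 16 libraries (23 in all), so that a single set of reads was counted for both. Counting was not stated to use strand.

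**Figure D5:**
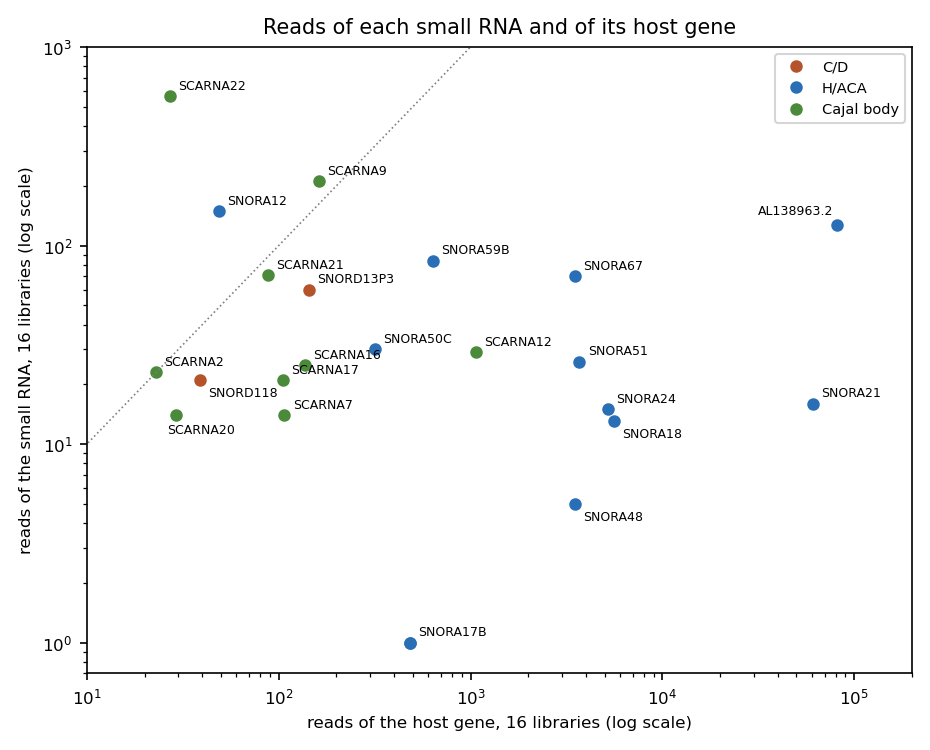
Reads of each member that has a host gene (y axis, log scale) against reads of that host (x axis, log scale), summed over the 16 libraries, with a dotted line at equal numbers. SCARNA22, SNORA12 and SCARNA9 lie above the line, SCARNA2 on it, and the H/ACA RNAs in TPT1, RPL23 and EIF4A1 far to the right of it.

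The hosts of SNORA12, AL138963.2 and SCARNA22 did not pass for co-culture in Caco-2. CWF19L1 differed by −0.18 (SE 0.52, adjusted p = 0.906) beside SNORA12, TPT1 by −0.05 (SE 0.05, adjusted p = 0.681) beside AL138963.2, and NSD2 by −0.11 (SE 0.76, adjusted p = 0.964) beside SCARNA22, in limma's test. NOP56, the host of SNORA51 and a C/D core protein, differed by 0.74 (SE 0.16, adjusted p = 0.0659). TAF1D, the host of SNORA18 and a subunit of a polymerase I factor, was the 1 host that passed, with a lower level in co-culture (−0.56, SE 0.11, adjusted p = 0.0457), while SNORA18 differed by 0.91 (SE 0.67, adjusted p = 0.618). The difference between a member's change and its host's was not tested.

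Between the lines, SLC47A1, the transporter gene around SNORA59B, was higher in HepG2 (log2 difference 5.77, SE 0.25, adjusted p = 5.10e-10 in limma's test), in the same direction as SNORA59B. SNHG25 (1.18, SE 0.25, adjusted p = 0.00212) went with SNORA50C, and CEP295 (−2.35, SE 0.35, adjusted p = 0.000131) with SCARNA9. EIF4A1 was higher in HepG2 (1.11, SE 0.11, adjusted p = 2.27e-06) where SNORA67 was lower, and NOP56 (2.40, SE 0.10, adjusted p = 3.80e-10) where SNORA51 was lower.

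The proteins that build and process these RNAs gave few calls within a line. In the C/D core proteins (4 genes tested), the H/ACA core proteins (4), the assembly factors (10 of 11), the Cajal body and nucleolar transport proteins (10), the processing and 3′ end proteins (23 of 26) and the other short non-coding RNAs (16 in Caco-2 and 13 in HepG2, of 35), 0 genes passed in either direction for any culture, treatment or interaction contrast in either line in limma's test. For co-culture in Caco-2, 1, 0, 0, 3, 2 and 2 genes of these lists had an unadjusted p under 0.05, where 8.41% of all genes did as higher and 3.37% as lower. The median difference was 0.33 for the processing and 3′ end proteins, with 18 of 23 positive, and lay between −0.26 and 0.00 for the other lists, beside 0.14 for all genes. The smallest p belonged to MPHOSPH6, an exosome cofactor (1.34, SE 0.33, adjusted p = 0.104), and EXOSC6, an exosome subunit (0.82, SE 0.22, adjusted p = 0.135).

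For FFA in HepG2, NOP10, an H/ACA core protein, had the smallest p in these lists (difference −0.54, SE 0.11, adjusted p = 0.134 in limma's test), followed by WRAP53, which brings scaRNAs to Cajal bodies (−1.56, SE 0.48, adjusted p = 0.225). Neither passed.

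Between the lines, where 12.5% of all genes passed as higher in HepG2 and 17.9% as lower, some genes of these lists passed. In HepG2, 3 of the 4 C/D core proteins were higher, NOP56, NOP58 (0.50, SE 0.12) and SNU13 (0.74, SE 0.07), and FBL differed by −0.06 (SE 0.21, adjusted p = 0.841). Of the H/ACA core proteins DKC1 (1.51, SE 0.19), NHP2 (1.03, SE 0.16) and GAR1 (0.95, SE 0.28) were higher and NOP10 was lower (−0.45, SE 0.07). Higher and lower calls numbered 2 and 1 of 10 assembly factors, 2 and 3 of 10 Cajal body and transport proteins, 6 and 2 of 23 processing proteins and 0 and 0 of 17 other short RNAs, with EXOSC6 (3.24, SE 0.14) and XRN2 (1.96, SE 0.14) foremost.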

How the data were processed

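Messenger RNA of 16 libraries was analysed. The deposited values carry the name TPM. In every library 100% of low values were multiples, within 0.1 read, of what a read is worth, so they were treated as CPM that the authors computed from read counts, and the reads were recovered. The submitters' processing notes name minimap2 2.22 and GRCh38. The aligner and counter described in the methods are not stated to be those of the Nanopore reads.

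Each line was fitted over 8 libraries and 4 group means with limma 3.58.1 in R 4.3.3, on log2(CPM + 1), keeping genes whose mean reached 1 CPM in any group (15454 in Caco-2, 14430 in HepG2). The lines were compared over 16 libraries (17544 genes). P values were two-sided and adjusted by the Benjamini-Hochberg method over all genes tested, with a threshold of 0.05. The tests were planned for TPM and kept for CPM. edgeR 4.0.16 on the recovered reads, other filters, pseudocounts and normalizations, a replicate block and leaving out each library were alternatives. The main fit and edgeR were also run on simulated reads with known changes, for co-culture averaged over treatment.

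Named were SNORA12 and AL138963.2, the 10 members of highest mean, members that passed (or the 2 of smallest p), those beside the limit, their hosts, and list genes by the same kind of rule, of which a selection is printed. The members, lists and tests were chosen with earlier results of these data known. Positions, hosts and boxes come from GENCODE release 44. Replicates are labelled as separate samples, and the study's methods describe independent experiments for sequencing.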

Additional observations from a re-analysis of the deposited data

Results flagged for a closer look

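In 9 cases every library of a member moved one way in one setting and the opposite way in the other. None of these differences passed in limma's test, and with 2 libraries a group such patterns rest on few reads. The share of all genes with such a pattern was not counted, so the 9 cases are not shown to exceed it. For FFA in mono-culture, Caco-2 libraries were higher and HepG2 libraries lower for SNORD13 (HepG2 minus Caco-2 effect −1.81, SE 0.54, adjusted p = 0.617), SCARNA22 (−2.10, SE 0.60, adjusted p = 0.616) and SNORA11F (−2.41, SE 1.37, adjusted p = 0.902). For FFA in co-culture the same held for SNORD13P3 (−3.95, SE 1.45, adjusted p = 0.255) and SNORA21 (−3.0, SE 1.36, adjusted p = 0.365). For co-culture without FFA, SNORD13P3 was lower in Caco-2 and higher in HepG2 (2.07, SE 1.45, adjusted p = 1), and for co-culture with FFA, SNORA67 was higher in Caco-2 and lower in HepG2 (−3.20, SE 1.08, adjusted p = 0.208). In Caco-2, SNORA11F (−2.85, SE 1.14) and SNORA51 (−2.84, SE 1.23) were higher with FFA in mono-culture and lower in co-culture, each with an adjusted p of 0.820.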

How the results depend on the processing

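Deviations of same-numbered libraries correlated between −0.0047 and 0.0318 (Caco-2) or −0.0169 and 0.0236 (HepG2) over the genes tested. This shows no pairing by replicate number, but many of these genes hold few reads, which can hide a shared effect. For Caco-2 co-culture averaged over treatment, 0.453% of genes passed without replicate number as a block and 1.36% with it. With replicate number as a block, 3 members passed for Caco-2 co-culture without FFA (0 without the block), SNORD13 with an adjusted p of 0.00150, and 11 for HepG2 against Caco-2 (12 without), with no other change of a count. For Caco-2 co-culture averaged over treatment, 0 passed with a pseudocount of 0.1, 7 in edgeR and 0 to 1 without a library, against 3. Without FFA, 3 passed with no filter, 5 at a mean of at least 10 CPM, 1 after quantile normalization, 4 in edgeR and 0 to 1 without a library. For HepG2 FFA, edgeR called 3 averaged over culture and 1 in mono-culture. Leaving out a library, with a lone replicate taken to vary like the other groups, gave 0 to 5 for HepG2 co-culture averaged over treatment, 0 to 5 for FFA and 0 to 3 for the interaction. The highest count of each came without co-culture FFA replicate 1, which leaves the shallowest library alone in its group. HepG2 against Caco-2 gave 3 in mono-culture libraries only and 9 to 15 without a library. The summed H/ACA log2 ratio for co-culture was 2.22 in Caco-2 and 1.37 in HepG2 from members at a mean of at least 10 CPM. Those members were SNORA12 and AL138963.2 alone, which had been noticed for co-cultured Caco-2 cells. From members in no same-strand exon the ratio was −0.16 in HepG2. Without SNORA12 and AL138963.2, a setting added after seeing the data, it was 0.96 in Caco-2. For FFA in HepG2 the H/ACA ratio was −0.84 from members at a mean of at least 10 CPM and −0.86 from members in no same-strand exon. Without SNORA12 and AL138963.2 it was 0.056. The C/D ratio without SNORD13 was 0.082 for co-culture in Caco-2 and −1.81 for FFA in HepG2, and −1.15 without the HepG2 co-culture FFA libraries, which was likewise added later. These causes were not tested. No direction of a called member reversed under any of the alternatives. The shallow HepG2 co-culture FFA libraries limit every HepG2 FFA and co-culture value. All HepG2 FFA libraries were shallower than all HepG2 control libraries.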
